A study of Mus musculus with 6 samples.

Results

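Claudins and their partner proteins at the tight junction were followed across the cell classes of the mouse jejunal epithelium. The 9 genes described are *Cldn2*, *Cldn3*, *Cldn4*, *Cldn7*, *Cldn15*, *Cldn23*, *Ocln*, *Tjp1* and *F11r*, taken by symbol from the 32285 genes of the deposited feature lists, and all 9 were listed there. They were read as unique molecular identifiers (UMIs, each standing for 1 captured transcript) in droplet-based 3′ single-cell libraries. The cells came from male wildtype C57BL/6J mice of about 30 weeks of age, fasted overnight, in 3 groups: a low-fat diet with sham surgery (LFD sham, 3 mice), a high-fat diet with sham surgery (HFD sham, 3 mice), and a high-fat diet with vertical sleeve gastrectomy (HFD VSG, 2 mice), an operation that removes most of the stomach. All mice had been on their diet for 16 weeks before surgery and were returned to it afterwards, and tissue was collected 5 weeks after surgery. The mice of a group were pooled into a crypt library and a villus library separated by scraping and a strainer, so that each group and fraction is 1 library with no replicate, and both libraries of a group hold the same mice.

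Tight junctions are the belt of strands that closes the space between neighbouring epithelial cells near their apical side. Claudins, which span the membrane, polymerise into these strands and set what passes between the cells: some form pores for ions and water and others seal. Occludin (*Ocln*) and junctional adhesion molecule A (*F11r*) run beside them in the membrane, and ZO-1 (*Tjp1*) ties the strands to actin. In the intestine the crypt is known to be leakier to ions than the villus, and the claudins are expressed in bands along that axis.

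The genes lie on 7 chromosomes of GRCm38, the build of the mm10 reference. *Cldn2* lies on chromosome X at 139800828-139811386 (plus strand), *Cldn7* on chromosome 11 at 69964779-69967885 (plus), *Cldn15* on chromosome 5 at 136966616-136975858 (plus) and *Cldn23* on chromosome 8 at 35824712-35826559 (minus). *Ocln* lies on chromosome 13 at 100496507-100552718 (minus), *Tjp1* on chromosome 7 at 65296165-65527781 (minus) and *F11r* on chromosome 1 at 171437535-171464603 (plus). *Cldn4* (chromosome 5, 134945119-134946934, minus) and *Cldn3* (chromosome 5, 134986214-134987472, plus) are neighbours whose starts are 39280 bases apart on opposite strands. *Cldn3* is overlapped on the other strand by *Wbscr25*, an antisense gene that the feature lists also hold, and how much of the *Cldn3* count this overlap could touch was not measured. RefSeq entries for the promoter were at hand for 8 of the 9 genes, and *Cldn23* is named only.

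The promoters of 3 genes are shown, *Cldn2* and *Cldn4* because they were read mainly in a few cell classes and *Cldn3* because it neighbours *Cldn4* and differed between the diet groups: *Cldn2* at chrX:139800558-139800807 (plus strand), *Cldn4* at chr5:134946935-134947184 (minus) and *Cldn3* at chr5:134985964-134986213 (plus). Each is the 250 bases before the RefSeq start on GRCm38.p6, written 5′ to 3′, with motif matches in capitals.
Cldn2: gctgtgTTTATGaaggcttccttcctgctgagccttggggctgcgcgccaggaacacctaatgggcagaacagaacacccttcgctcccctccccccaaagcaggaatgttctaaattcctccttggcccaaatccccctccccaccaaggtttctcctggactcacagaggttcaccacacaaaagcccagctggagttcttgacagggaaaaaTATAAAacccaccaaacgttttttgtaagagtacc
Cldn4: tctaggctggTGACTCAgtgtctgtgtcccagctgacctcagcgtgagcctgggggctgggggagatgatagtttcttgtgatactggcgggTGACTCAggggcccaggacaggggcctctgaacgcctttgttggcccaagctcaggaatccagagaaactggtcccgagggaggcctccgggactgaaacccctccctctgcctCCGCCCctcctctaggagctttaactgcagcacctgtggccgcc
Cldn3: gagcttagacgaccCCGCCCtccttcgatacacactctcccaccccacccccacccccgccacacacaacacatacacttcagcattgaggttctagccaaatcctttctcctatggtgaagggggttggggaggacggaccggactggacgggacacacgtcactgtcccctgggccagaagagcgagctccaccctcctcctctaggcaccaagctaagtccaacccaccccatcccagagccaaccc
The motifs were searched as exact letters on both strands. The TATA box was searched as the letters TATAAA, the motif of CDX factors as TTTATG, that of HNF1 as GTTAAT, and that of GATA factors as AGATAA. The motif of TCF/LEF was searched as CTTTGAT, that of SP/KLF factors as GGGCGG and that of AP-1 as TGANTCA. The *Cldn2* window held the TATA box letters at 35 to 30 bases before the start and the CDX letters at 244 to 239, which 12.4% and 10.8% of 32851 promoters of the same length also hold. The *Cldn4* window held AP-1 letters at 240 to 234 and again at 158 to 152 bases before the start (6.75% of promoters hold any), and SP/KLF letters on the other strand at 44 to 39 (32.7% of promoters). *Cldn3* held only the SP/KLF letters, on the other strand at 236 to 231. GC content was 52% for *Cldn2*, 62% for *Cldn4* and 60.8% for *Cldn3*, against a median of 52.4% over all promoters.

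After filtering, 23551 cells remained in the 6 libraries (2858 to 4600 each), of which 1212 were immune-like. Cells were clustered without the 9 genes or other junction genes, and clusters were called enterocyte-like, stem-like and so on from marker genes. The stem markers added up to 5162 to 7145 UMIs per 1000000 UMIs (CPM) in the stem-like class, and immune markers made 0.494 to 34.6 CPM of the enterocyte-like class. In each group the villus-labelled library held more stem-like cells (2.81 to 11% of epithelial cells) than the crypt-labelled one (1.18 to 2.94%), and fewer enterocyte-like cells (35.6 to 49.9% against 57.4 to 64.3%), which goes against the labels, so fractions are called crypt-labelled and villus-labelled throughout. The HFD VSG villus-labelled library stood apart: its cells had a median of 30138.5 UMIs against 8185 to 16273 in the others, and in its enterocyte-like cells 41.2% of all tested genes were past a log2 ratio of 0.5 from HFD sham. Any pair of libraries shared 1 to 10 cell barcodes. Levels are given as CPM, from the UMIs of a gene and of all genes summed over the cells of a class in a library. With 1 library a group no test between groups was possible, and every 95% limit is an exact one for counting error only (Poisson for a level, conditional binomial for a log2 ratio of 2 levels). Lower CPM of a gene in a class cannot be told apart from a change in which cells the class holds, and CPM of different genes are not set against each other.

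*Cldn2*, the claudin that forms a pore for cations and water, was highest in stem-like cells in all 6 libraries. In stem-like cells of the crypt-labelled libraries it stood at 164 CPM in LFD sham, 124 in HFD sham and 118 in HFD VSG, and in the villus-labelled ones at 127, 102 and 69.3 CPM. Cycling progenitor-like cells carried less, 96.5, 76.6 and 95.7 CPM in the crypt-labelled libraries and 86.0, 78.5 and 50.1 in the villus-labelled ones. The stem-like class was itself led by S-phase genes such as *Mcm3*, *Hells* and *Uhrf1* beside *Olfm4* and *Lgr5*. Its contrast with the cycling class is therefore not one of resting with dividing cells. Stem-like cells were above cycling cells in all 6 libraries, by 1.24 to 1.70-fold with every 95% limit above equality, and cycling cells were 2.20 to 7.76-fold above early progenitor-like cells (11.3 to 28.2 CPM). Enterocyte-like cells held 0.449 to 5.47 CPM, so that stem-like cells were 12.7 to 277-fold higher. That enterocyte level lay below that of droplets with under 100 UMIs, which sample free RNA, in every library (1.64 to 18.3 CPM), and immune-like cells, which should lack the gene, held 0 to 2.91 CPM. Thinned to 1500 UMIs per cell, 9.43 to 20.5% of stem-like cells had a *Cldn2* UMI (63.5 to 80.7% unthinned, median depth 10242 to 29399 UMIs), against 0 to 0.566% of immune-like cells (0 to 1.01% unthinned, median depth 2007 to 6142.5 UMIs).

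*Cldn15*, the sodium-permeable pore of the small intestine that returns sodium to the lumen for nutrient uptake, had the opposite slope. Enterocyte-like cells held 298 CPM in LFD sham, 264 in HFD sham and 300 in HFD VSG of the crypt-labelled libraries, and 286, 260 and 301 CPM in the villus-labelled ones. The stem-like class held 148 to 178 CPM, and early progenitors lay between at 186 to 231 CPM in each library. Stem-like cells were 0.501 to 0.673 times the enterocyte level, with limits below equality in all 6 libraries. *Cldn15* was low in several secretory classes, at 42.1 to 77.6 CPM in enteroendocrine (EEC)-like and 23.3 to 43.9 in Paneth-like cells. Tuft-like cells held 28.2 to 42.0 CPM in the villus-labelled libraries (12 to 20 UMIs). Over all 6 libraries the tuft-like range was 13.1 to 82.8 CPM, the top from 13 cells of HFD sham crypts. Goblet-like cells held more, at 159 to 204 CPM.

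Of the claudins counted as sealing, *Cldn3* was read in every epithelial class. Goblet-like cells held 484, 401 and 543 CPM in LFD sham, HFD sham and HFD VSG crypt-labelled libraries and 540, 501 and 689 CPM in the villus-labelled ones. They were above enterocyte-like cells in all 6 libraries, by 1.05 to 2.43-fold, the narrowest gap being in the HFD VSG villus-labelled library. Tuft-like cells (385 to 536 CPM) and early progenitor-like cells (425 to 609 CPM) held like levels, and Paneth-like cells little (59.4 to 88.4 CPM). Immune-like cells read 35.1 to 47.5 CPM in 4 libraries and 171 CPM in HFD VSG crypts (5 immune-like cells in HFD sham villi held none), while the droplets under 100 UMIs held 188 to 652 CPM.

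*Cldn4*, like *Cldn3* a receptor for *Clostridium perfringens* enterotoxin, was instead found in few cells. EEC-like cells held 290, 320 and 115 CPM in the LFD sham, HFD sham and HFD VSG crypt-labelled libraries and 51.0, 43.0 and 53.7 CPM in the villus-labelled ones, from 24 to 62 UMIs each. Goblet-like cells held 91.9, 91.6 and 41.6 CPM and then 25, 11.5 and 13.7 CPM. For EEC-like and for goblet-like cells every crypt-labelled library was above every villus-labelled one. Droplets under 100 UMIs were ordered alike, at 16.5 to 40.4 CPM in the crypt-labelled and 2.84 to 6.66 CPM in the villus-labelled libraries, and the part of free RNA was not tested. Early progenitor-like cells held at most 4.44 CPM. Among enterocyte-like cells thinned to 1500 UMIs, 0.511 to 7.07% had a *Cldn4* UMI (1.68 to 14.7% unthinned), against 0 to 3.08% of immune-like cells.

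*Cldn7*, a claudin that also lies along the lateral membrane and binds the adhesion molecule EpCAM, was read in all absorptive classes. Enterocyte-like cells held 1533, 1479 and 1680 CPM in the crypt-labelled libraries of LFD sham, HFD sham and HFD VSG, and 1398, 1317 and 1424 CPM in the villus-labelled ones. Stem-like cells held 966 to 1115 CPM, lower in all 6 libraries, and goblet-like cells 841 to 990 CPM. *Cldn23*, a less studied claudin of differentiated gut epithelium, stood at 16.0, 35.8 and 32.2 CPM in enterocyte-like cells of the crypt-labelled and 30.7, 48.7 and 57.9 CPM of the villus-labelled libraries. Stem-like cells held only 3.96 to 14.8 CPM of it, 0.183 to 0.330 times the enterocyte level, and early progenitor-like cells 21.4 to 48.8 CPM, above the enterocyte level in 3 libraries and below it in 3. Of the enterocyte-like cells thinned to 1500 UMIs, 2.95 to 7.29% had a *Cldn23* UMI (17.6 to 73.5% unthinned, median depth 13264 to 34662 UMIs), against 0 to 1.30% of immune-like cells (0 to 8.11% unthinned).

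Occludin (*Ocln*), which steadies the strands, lay at 39.4 to 88.3 CPM in all epithelial classes but Paneth-like cells (4.91 to 10.8 CPM). Enterocyte-like cells held 43.3, 42.6 and 47.9 CPM in the crypt-labelled libraries and 52.1, 47.3 and 51.5 CPM in the villus-labelled ones, and stem-like cells 53.6 to 77.9 CPM, higher by 1.10 to 1.80-fold with limits above equality in 5 of 6 libraries. *Tjp1*, the scaffold ZO-1, stood at 80.4, 85 and 84.6 CPM in enterocyte-like cells of the crypt-labelled libraries and at 94.3, 98.8 and 76.9 CPM in the villus-labelled ones. Early progenitor-like cells were above these in 5 libraries, at 109 to 156 CPM, and below in HFD VSG villi, at 63.1 CPM. *F11r*, an immunoglobulin-like adhesion molecule, held 155, 162 and 155 CPM and 153, 164 and 112 CPM in enterocyte-like cells, with 41.6 to 76.6 CPM in the stem-like and 132 to 214 CPM in the tuft-like class. Stem-like cells were 0.355 to 0.494 times the enterocyte level in all 6 libraries.

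**Figure D1:**
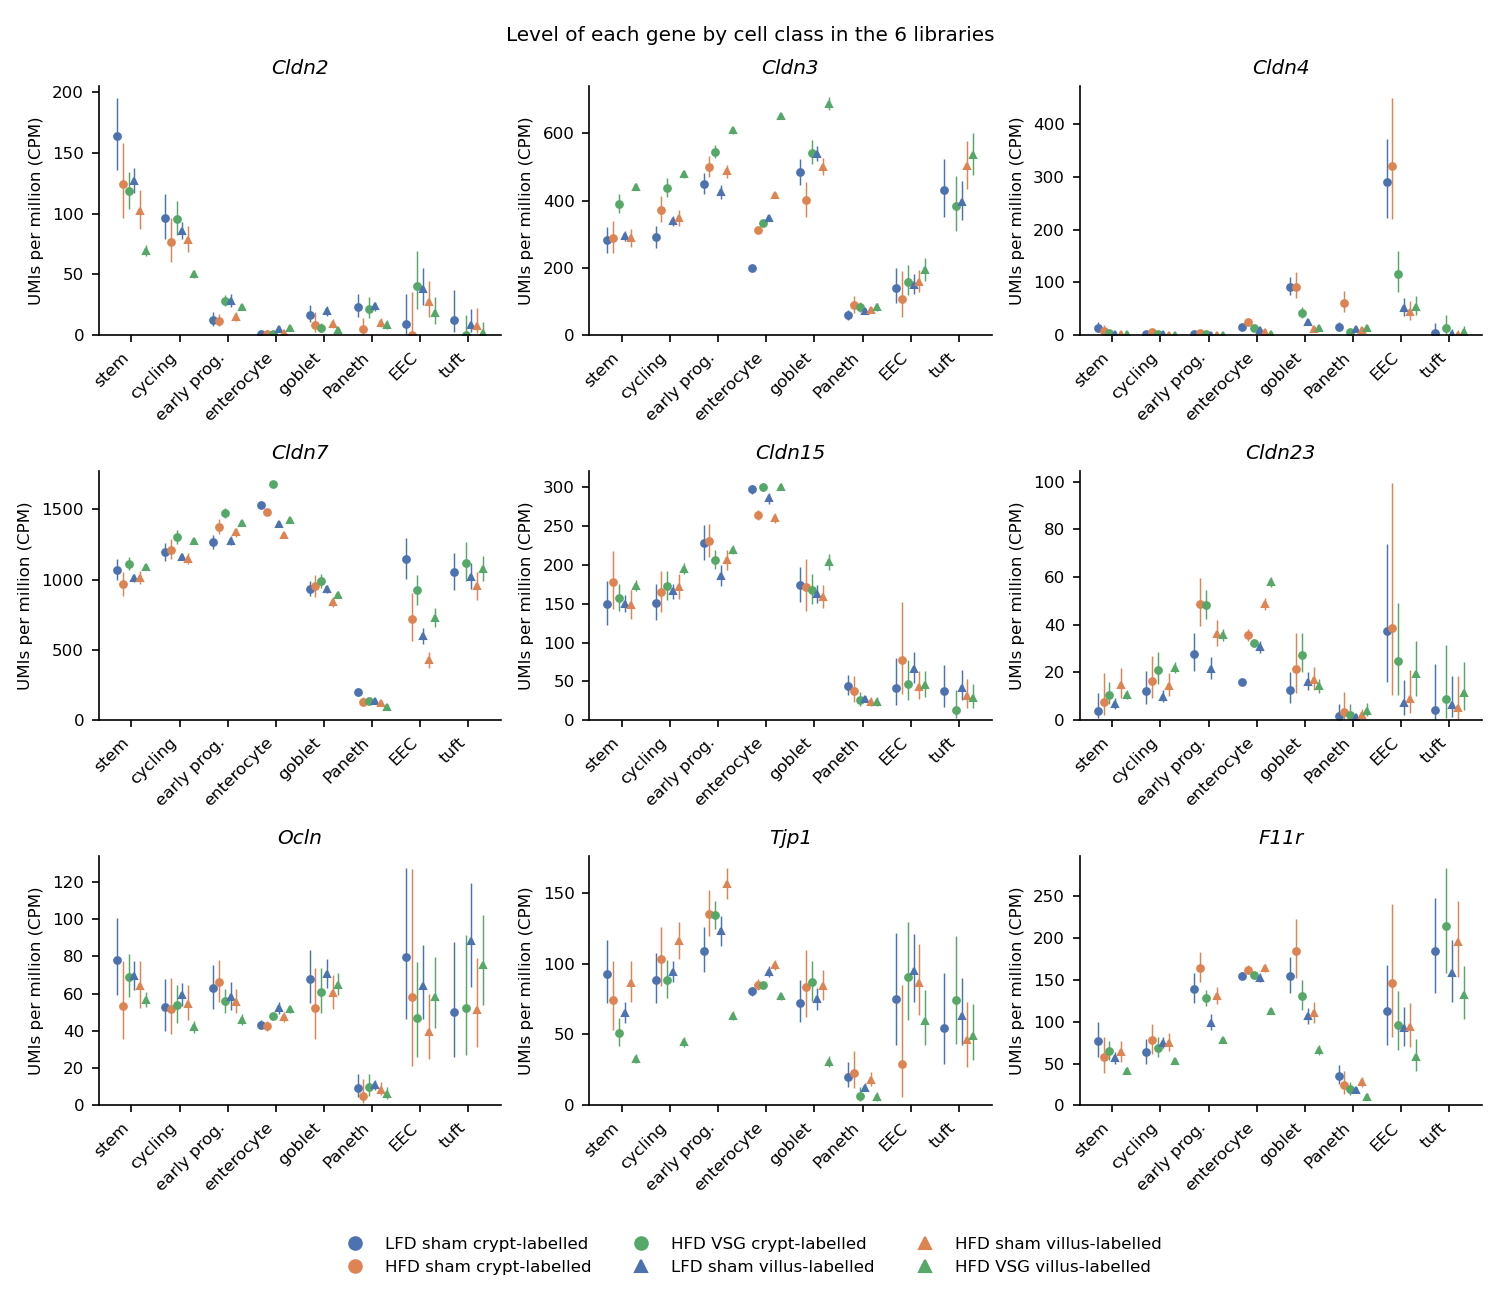
Level of each of the 9 genes (CPM, linear axis from 0) in 8 cell classes of the 6 libraries. Colour marks the group, circles the crypt-labelled and triangles the villus-labelled library, and bars the 95% Poisson limits, with tuft-like cells of HFD sham crypts left out (13 cells). *Cldn2* stands at 69.3 to 164 CPM in stem-like cells and at most 5.47 CPM in enterocyte-like cells, whereas *Cldn15* is highest in enterocyte-like cells at 260 to 301 CPM.

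Paneth-like cells, whose UMIs are mostly of a few secreted products, were below enterocyte-like cells for 7 of the 9 genes in all 6 libraries with limits below equality, the exceptions being *Cldn2* and *Cldn4*. Paneth markers made up 612370 to 678643 CPM in these cells, and a CPM is lowered by whatever else a class makes in bulk. How much of the low values this accounts for was not tested. Between stem-like and enterocyte-like cells, *Cldn2* was at least 2-fold higher in stem-like cells in all 6 libraries, as were 19.3% of 9514 genes, and *Cldn23* and *F11r* were at least 2-fold lower, as were 10.6%. *Cldn3* was 0.677 to 1.41 times the enterocyte level in stem-like cells, *Cldn4* 0.112 to 1.10 times and *Tjp1* 0.425 to 1.15 times, each with limits below equality in 3 of 6 libraries. For *Cldn3* those were the villus-labelled libraries, and 2 crypt-labelled ones had limits above equality, LFD sham (1.41 times) and HFD VSG (1.17 times), while *Cldn4* and *Tjp1* had none above. The median of all genes was itself 0.39 higher in stem-like cells on the log2 scale. Counts of 1 and 2 among 9 genes are not far from those shares. Clusters were made from the same cells, so these class differences are descriptions.

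The enterocyte-like cells fell into 6 clusters, numbered 0, 1, 2, 8, 10 and 16, and cluster 8 differed from the rest in its junction genes. It held 1017 cells and was led by *Ada*, *Nt5e*, *Ly6m*, *Slc28a2* and *Clca4a*, with villus tip genes at a summed 15066 CPM. Its enterocyte name rests on 8 of 12 markers, as does that of cluster 2. Its median depth was the lowest of the 6 in every library, at 5837 UMIs against 11794 to 19567 in LFD sham crypts. At resolution 0.8 a cluster of 990 cells with the same leading genes was left unnamed, as no class met the rule. Such cells then entered no class ratio. *Cldn4* stood there at 223, 373 and 236 CPM in the LFD sham, HFD sham and HFD VSG crypt-labelled libraries and at 226, 449 and 216 CPM in the villus-labelled ones, while no other enterocyte cluster was above 7.17 CPM in any library. Cluster 8 of HFD VSG villi held 19 cells, under the minimum of 20, and its values are left out of the ranges that follow unless 6 libraries are named. Cluster 8 was 93.6 to 700.5-fold above the sum of the other enterocyte clusters in the remaining 5 libraries (970-fold in HFD VSG villi), and it gave 439 of the 496 *Cldn4* UMIs of enterocyte-like cells in LFD sham crypts and 66 of 77 in HFD VSG villi. *Cldn4* was left out of the clustering and was nevertheless among the 10 leading genes of that cluster.

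*Cldn7* was also higher in cluster 8, at 2862 to 3490 CPM and 2.14 to 2.59-fold above the other enterocyte clusters. *F11r* followed at 210.4 to 379 CPM (1.40 to 2.64-fold), with limits above equality in all 5 libraries. *Ocln* stood at 50.2 to 137 CPM and was higher with limits above equality in 4 of 5 libraries, as was *Tjp1*. *Cldn15* went the other way, at 126 to 200.1 CPM or 0.462 to 0.655 times the other clusters, with limits below equality in all 5 (0.924 times in HFD VSG villi, with limits that held equality). *Cldn3* too was lower with such limits in 4 of 5. *Cldn23* was 0.813 to 1.56 times the other clusters, with limits above equality in 2 libraries. *Cldn2* had 0 UMIs in cluster 8 in 4 of the 6 libraries and 1 UMI in each of the other two, too few for a ratio. At least 2-fold higher in all 6 libraries were *Cldn4* and *Cldn7*, 2 of the 9, against 4.12% of 8916 genes, and none of the 9 was as far below, against 9.28%. Without HFD VSG villi, a choice made after seeing the data, the same 2 genes were higher and none lower, against 4.45% and 11.8% of 8645 genes. The median of all genes had a log2 ratio of -0.29 in cluster 8.

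**Figure D2:**
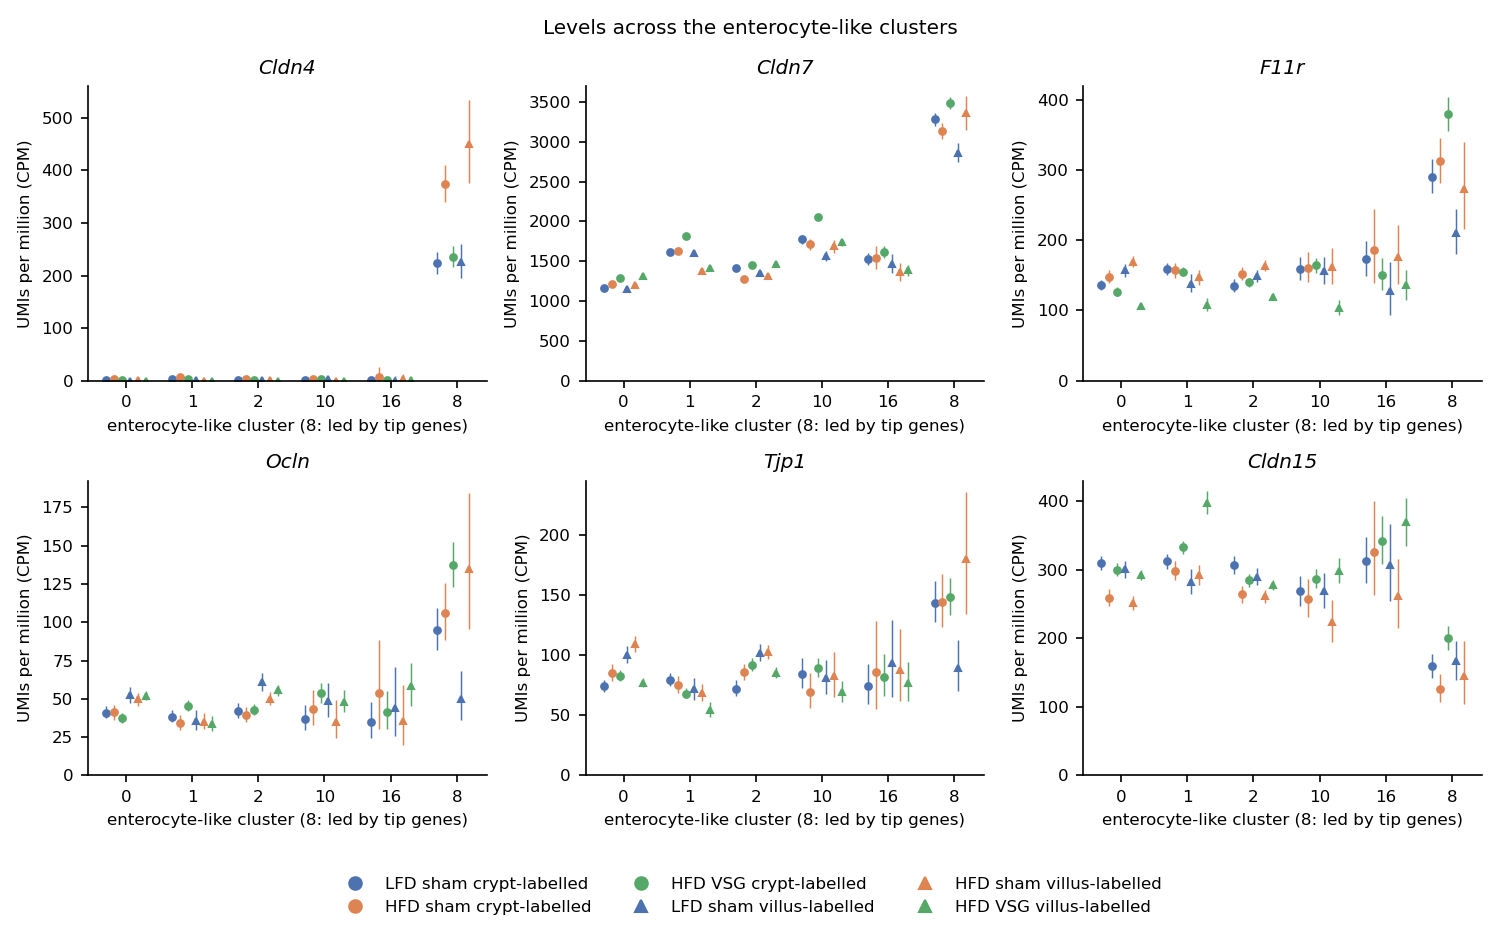
Level (CPM, linear axes from 0) of *Cldn4*, *Cldn7*, *F11r*, *Ocln*, *Tjp1* and *Cldn15* in the 6 enterocyte-like clusters of each library, with colour for the group, circles for crypt-labelled and triangles for villus-labelled libraries, and bars for 95% Poisson limits. Cluster 8 of HFD VSG villi is left out (19 cells). *Cldn4* reads 223 to 449 CPM in cluster 8 and at most 7.17 CPM elsewhere, and *Cldn15* is lower there.

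Cluster 8 made up 13.9% of enterocyte-like cells in LFD sham, 13.6% in HFD sham and 9.66% in HFD VSG crypt-labelled libraries, and 8.49%, 2.92% and 1.39% in the villus-labelled ones. Villus tip genes over all enterocyte-like cells ranged alike, from 2321, 2366 and 1923 CPM in the crypt-labelled to 1505, 1172 and 643 CPM in the villus-labelled libraries. Genes of that list, *Ada*, *Nt5e*, *Slc28a2* and *Ly6m*, lead cluster 8, so the sum is not separate from the cluster 8 shares. The *Cldn4* ratio of the class is given with these shares in each comparison.

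The high-fat diet was compared with the low-fat diet in sham-operated mice to ask which junction genes differ with diet. In enterocyte-like cells *Cldn3* and *Cldn23* were higher in HFD sham than in LFD sham under both labels. *Cldn23* read 16.0 CPM in LFD sham against 35.8 in HFD sham in crypt-labelled libraries (513 and 797 UMIs), a log2 ratio of 1.16 (95% limits 1.00 to 1.33), and 30.7 against 48.7 CPM in villus-labelled ones (657 and 1380 UMIs), a log2 ratio of 0.67 (0.53 to 0.80). These ratios exceeded 99.4% and 97.4% of those of all tested genes. *Cldn3* read 199 against 311 CPM, a log2 ratio of 0.64 (0.59 to 0.69), and 348 against 415 CPM, a log2 ratio of 0.26 (0.21 to 0.30).

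With tested genes taken as those averaging 50 UMIs over the 3 groups, 3 of 8 genes were past a log2 ratio of 0.5 in the crypt-labelled libraries (*Cldn3*, *Cldn4* and *Cldn23*, all higher in HFD sham), against 12.2% of all tested genes. In the villus-labelled libraries 3 of 9 were past it (*Cldn23* higher, *Cldn2* and *Cldn4* lower), against 13.0%. *Cldn7*, *Cldn15*, *Ocln*, *Tjp1* and *F11r* had log2 ratios of -0.17 (*Cldn15*) to 0.10 (*F11r*) over both labels. The median of all genes moved by 0.01 and -0.03.

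The difference was seen in each cluster. *Cldn3* was above LFD sham in all 6 enterocyte clusters under both labels, by log2 ratios of 0.16 to 0.86 in crypt-labelled and 0.09 to 0.88 in villus-labelled libraries, with limits above 0 in 5 and 6 clusters. *Cldn23* was also above in all 6 clusters, by 1.04 to 1.32 (limits above 0 in 5) and by 0.36 to 1.99 (limits above 0 in 4, the highest ratio resting on 3 UMIs in LFD sham with limits 0.12 to 4.44). Early progenitor-like cells had a higher *Cldn23* too, by 0.82 (0.31 to 1.34) and 0.75 (0.38 to 1.13), whereas *Cldn3* differed there by 0.15 and 0.19 and in goblet-like cells by -0.27 and -0.11. Other values of the same libraries moved with these genes. Droplets under 100 UMIs held 188 and 272 CPM of *Cldn3* in the crypt-labelled and 251 and 314 CPM in the villus-labelled libraries of LFD sham and HFD sham. Genes that mark damaged droplets (*Gm42418*, *Gm26917*, *Lars2* and *AY036118*) summed to 61766 and 51720 CPM in crypt-labelled and 60775 and 38027 CPM in villus-labelled enterocyte-like cells. Their part in the difference was not tested. Over 11 other settings, subtracting the free RNA profile among them, *Cldn3* ranged from 0.56 to 0.72 and from 0.22 to 0.55. *Cldn23* ranged from 1.05 to 1.38 and from 0.64 to 0.93.

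**Figure D3:**
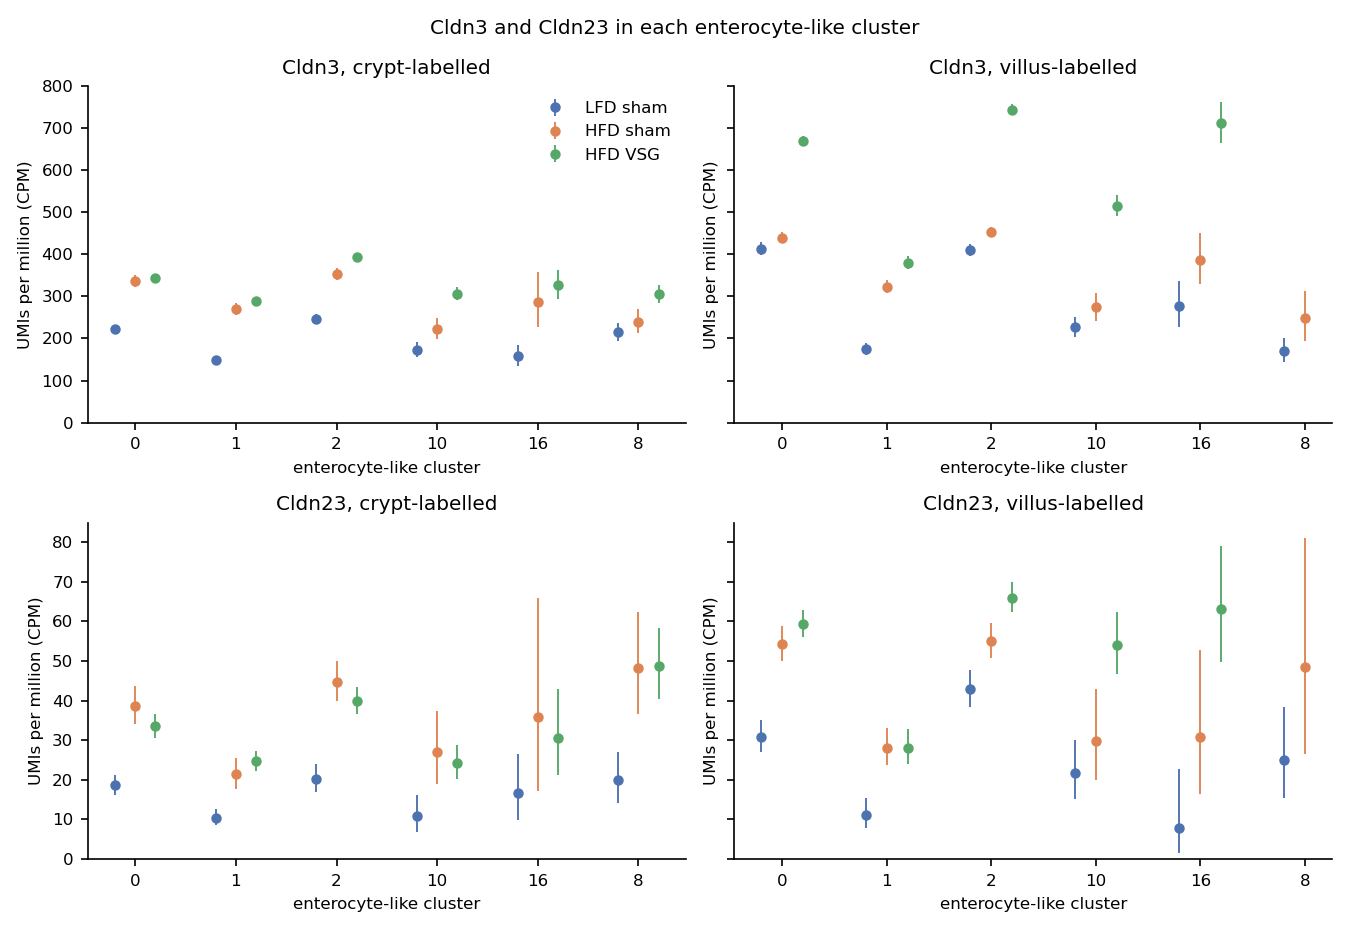
Level (CPM, linear axis from 0) of *Cldn3* and *Cldn23* in each enterocyte-like cluster, with crypt-labelled and villus-labelled libraries in separate panels, colour for the group and bars for 95% Poisson limits (cluster 8 of HFD VSG villi left out, 19 cells). In each of the 6 clusters and under each label, HFD sham lies above LFD sham for both genes.

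*Cldn4* in enterocyte-like cells went opposite ways under the labels, at 15.4 against 23.9 CPM in LFD sham and HFD sham crypt-labelled libraries (log2 ratio 0.63, limits 0.45 to 0.81) and at 9.52 against 5.22 CPM in the villus-labelled ones (-0.87, limits -1.18 to -0.55). Within cluster 8 alone it was higher in HFD sham under both labels, by 0.74 (0.55 to 0.93) in crypt-labelled and 0.99 (0.66 to 1.32) in villus-labelled libraries. The share of cluster 8 was 13.9 and 13.6% in the former and 8.49 and 2.92% in the latter. With the 6 clusters weighted equally the villus-labelled ratio turned to 0.98, and with cells of at least 1500 genes the crypt-labelled one turned to -0.05. The study's methods state a fraction of free RNA for each library, far higher for both HFD sham libraries, which enter this comparison and that of surgery with sham, than for the others. Subtracting free RNA at the stated fractions left the crypt-labelled ratio at 0.19.

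*Cldn2* in villus-labelled enterocyte-like cells read 5.18 CPM in LFD sham and 1.69 in HFD sham (111 and 48 UMIs), a log2 ratio of -1.61 (-2.13 to -1.11). The droplets under 100 UMIs of these libraries held 18.3 and 5.32 CPM, and stem-like cells, its main class, were 7.21 and 2.81% of epithelial cells. The part of either in the ratio was not tested. In stem-like cells themselves the log2 ratio of *Cldn2* was -0.40 in the crypt-labelled (limits -0.85 to 0.05) and -0.31 in the villus-labelled libraries (-0.57 to -0.06). In cycling cells it was -0.33 (-0.78 to 0.10) and -0.13 (-0.37 to 0.10), and in early progenitor-like cells -0.13 (-1.04 to 0.78) and -0.90 (-1.33 to -0.48). Villus-labelled Paneth-like cells had -1.26 (-1.89 to -0.68), from 29 UMIs in HFD sham and 154 in LFD sham. With 21 UMIs in HFD VSG, *Cldn2* reached the mean of 50 in that class only through LFD sham. Over all classes, 8 of 40 tested pairs of one of the 9 genes and a class were past 0.5 in crypt-labelled libraries (20%) and 11 of 54 in villus-labelled ones (20.4%), against 13.5% and 12.0% of pairs over all genes. The 11 include *Cldn2* in Paneth-like cells.

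**Figure D4:**
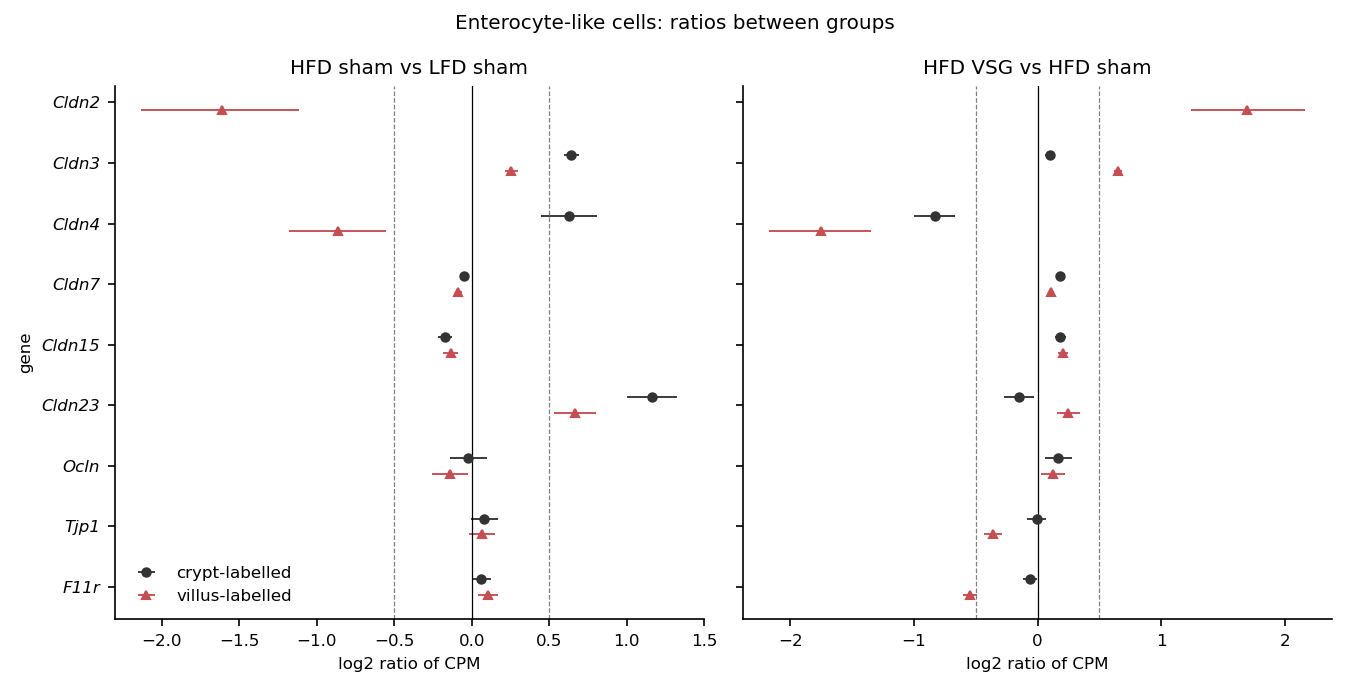
Log2 ratio of CPM in enterocyte-like cells for HFD sham against LFD sham and for HFD VSG against HFD sham, circles for crypt-labelled and triangles for villus-labelled libraries, bars for 95% counting limits and dashed lines at 0.5 above and below 0. Crypt-labelled *Cldn2* is not drawn (mean under 50 UMIs). *Cldn23* lies at 1.16 and 0.67 in the diet comparison, and *Cldn4* lies at -0.83 and -1.75 in the surgery comparison.

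Surgery was compared with sham on the high-fat diet to ask which of these genes differ after VSG. This comparison uses the same HFD sham libraries as the diet comparison, so that an unusual HFD sham value enters both with opposite sign. In crypt-labelled enterocyte-like cells 1 of 8 genes was past 0.5, against 8.43% of all tested genes: *Cldn4*, at 23.9 CPM in HFD sham and 13.4 in HFD VSG, a log2 ratio of -0.83 (-1 to -0.67). Cluster 8 was 13.6% of these cells in HFD sham and 9.66% in HFD VSG. The ratio ran from -1.27 to -0.0038 over 5 clusters, with limits below 0 in 3 of them, cluster 8 (-0.66, limits -0.84 to -0.48) being one, and cluster 16 had 2 UMIs in either library. With cells of at least 1500 genes the class ratio turned to 0.07, and with free RNA subtracted at the stated fractions, highest in HFD sham, it was -0.39. The median of all genes was 0.10 higher in HFD VSG. *Cldn3* and *Cldn23* differed by 0.10 and -0.15, *Tjp1* and *F11r* by -0.01 and -0.06, and *Cldn7*, *Cldn15* and *Ocln* by 0.18, 0.18 and 0.17. *Cldn2* had 10 UMIs in HFD sham and 61 in HFD VSG, under the mean of 50. In other crypt-labelled classes *Cldn2* in early progenitor-like cells read 27.8 CPM in HFD VSG against 11.3 in HFD sham (1.29, limits 0.65 to 1.99). These were 147 and 23 UMIs, with 22 in LFD sham, so *Cldn2* reached the mean of 50 there only through HFD VSG. *Cldn4* was lower in goblet-like cells, at 41.6 against 91.6 CPM (-1.14, limits -1.67 to -0.60).

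In villus-labelled enterocyte-like cells 4 of 9 genes were past 0.5, a share close to the 41.2% of all tested genes. *Cldn3* was higher at 653 against 415 CPM (0.65, limits 0.62 to 0.68), and *Cldn2* at 5.47 against 1.69 CPM (1.69, limits 1.24 to 2.17), next to 14.2 and 5.32 CPM in the droplets under 100 UMIs. For *Cldn3* such droplets were highest in an HFD VSG library, and their part was not tested. *Cldn4* was lower at 1.55 against 5.22 CPM (-1.75, limits -2.17 to -1.35), where cluster 8 was 1.39 and 2.92% of these cells and 1 cell held 16.9% of the HFD VSG UMIs. Over 8 other settings this *Cldn4* ratio ranged from -1.89 to -0.69. *F11r* was lower at 112 against 164 CPM (-0.55, limits -0.60 to -0.49), and its ratio was below 0 in the 5 clusters with enough cells (-0.67 to -0.38), with limits below 0 in 4. Over 11 other settings the class ratio of *F11r* ranged from -0.64 to -0.47 and stayed past the threshold in 10. *Cldn7*, *Cldn15*, *Cldn23* and *Ocln* had log2 ratios of 0.11, 0.21, 0.25 and 0.12, and *Tjp1* is described next.

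ZO-1 was lower in the HFD VSG villus-labelled library in several classes. *Tjp1* in villus-labelled stem-like cells stood at 65.2 CPM in LFD sham, 86.3 in HFD sham and 32.7 in HFD VSG, a log2 ratio of HFD VSG to HFD sham of -1.40. The ratio was -1.37 in the cycling class (116 CPM in HFD sham, 44.7 in HFD VSG), -1.31 in early progenitors (156 and 63.1 CPM) and -1.46 in the goblet-like class (84.1 and 30.7 CPM), but -0.36 among enterocytes. The median of all genes was lower too, at -0.27, -0.29, -0.20 and -0.21 in those 4 classes and -0.01 in enterocyte-like cells. Relative to that median *Tjp1* was -1.13, -1.08, -1.11 and -1.24, and 1.42%, 1.90%, 3.59% and 0.883% of tested genes, in the same order, had a lower ratio. Log2 ratios below -0.5 were held by 33.3%, 36.2%, 31.4% and 28.0% of genes there. HFD sham was itself above LFD sham for *Tjp1* in these 4 classes, by 0.40 (limits 0.11 to 0.70) in stem-like cells. LFD sham held 94.2, 123 and 74.7 CPM in the other classes, in the same order. Against LFD sham the stem-like ratio of HFD VSG was -0.997, or -0.715 relative to the median, and 6.32% of tested genes had a lower one. In early progenitor-like cells that ratio was -0.962.

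In the crypt-labelled libraries *Tjp1* differed between HFD VSG and HFD sham by -0.54 in stem-like cells (limits -1.09 to 0.03, 106 and 39 UMIs), by -0.23 in cycling, -0.01 in early progenitor-like and 0.06 in goblet-like cells, and the difference between the labels was not tested. *F11r* in the villus-labelled libraries was lower, at -0.61, -0.51, -0.74 and -0.75 in stem-like, cycling, early progenitor-like and goblet-like cells, or -0.34, -0.22, -0.54 and -0.54 relative to the median. *Cldn3* was higher in the same 4 classes, by 0.62, 0.46, 0.32 and 0.46, or 0.89, 0.75, 0.52 and 0.67 relative to the median. Among droplets under 100 UMIs *Cldn3* was highest in an HFD VSG library, and the part of free RNA was not tested. *Cldn2* in stem-like cells was -0.56, or -0.29 relative to the median, with 102 CPM in HFD sham against 69.3 in HFD VSG. Depth per cell moved with these ratios, the HFD VSG villus-labelled library being the deepest. Genes that mark damaged droplets were also lowest in that library among enterocyte-like cells, at 9042 CPM. In stem-like cells they ranged from 7758 to 57587 CPM over the libraries. The part of depth and of damaged droplets was not tested. Over all classes 23 of 54 gene and class pairs were past 0.5 in villus-labelled libraries (42.6%) and 4 of 40 in crypt-labelled ones (10%), close to the 42.1% and 12.7% of pairs over all genes. The 4 include *Cldn2* in early progenitor-like cells, which reached the mean of 50 UMIs only through HFD VSG.

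**Figure D5:**
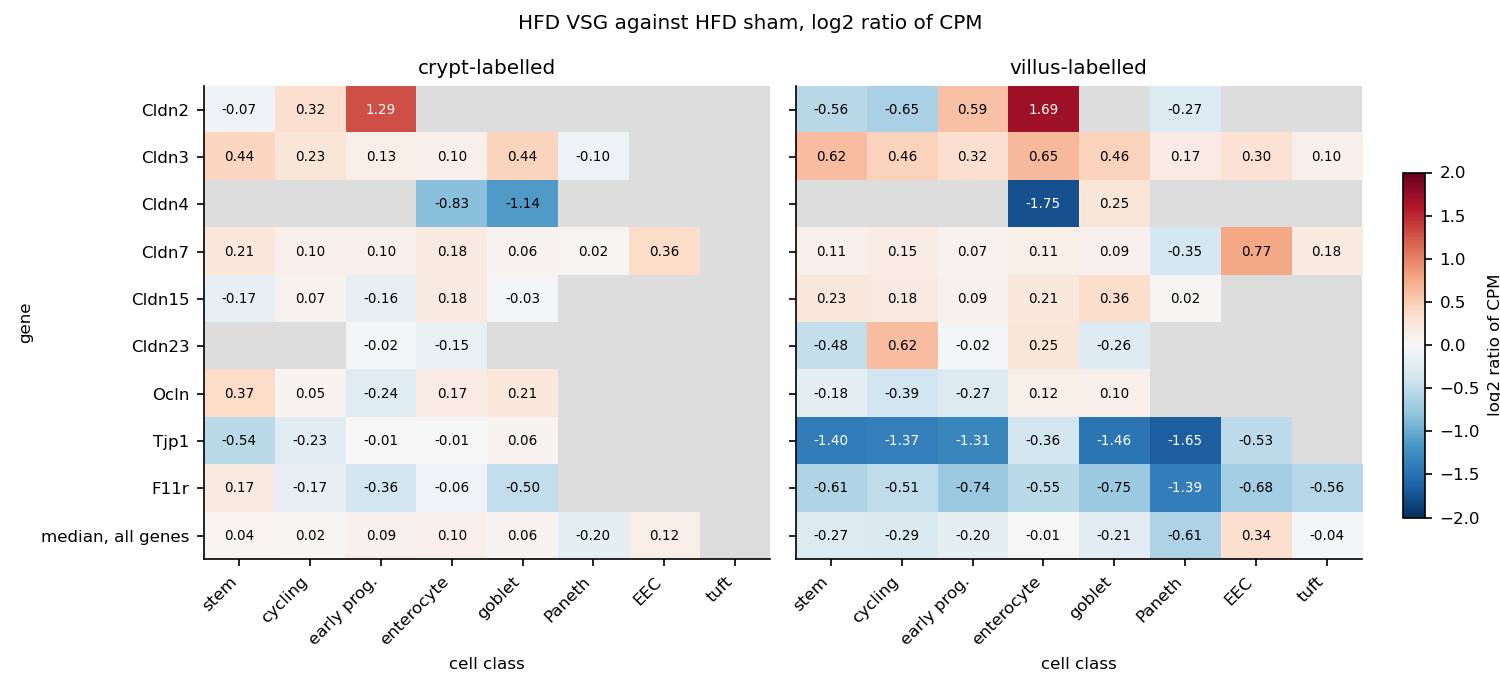
Log2 ratio of CPM of HFD VSG to HFD sham for the 9 genes (rows) in 8 cell classes (columns), crypt-labelled and villus-labelled, with the median of all tested genes in the bottom row and grey where a mean is under 50 UMIs or a library has under 20 cells. *Tjp1* lies at -1.46 to -1.31 in villus-labelled stem-like, cycling, early progenitor-like and goblet-like cells and at -0.54 to 0.06 in the crypt-labelled ones.

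Against LFD sham, HFD VSG enterocyte-like cells held more *Cldn3* and *Cldn23* under both labels. *Cldn23* was 1.01 higher in the crypt-labelled and 0.92 higher in the villus-labelled libraries on the log2 scale, and *Cldn3* 0.74 and 0.91. They were the 2 of 8 genes past 0.5 in the crypt-labelled libraries, against 14.3% of all genes. In the villus-labelled ones 3 of 9 were past it, against 41.7%, and the other gene was *Cldn4* (-2.62 in villus-labelled, -0.20 in crypt-labelled libraries). Cluster 8 was 8.49% of the LFD sham and 1.39% of the HFD VSG villus-labelled enterocyte-like cells, and 13.9 and 9.66% of the crypt-labelled ones, and within it *Cldn4* stood at 226 and 216 CPM (the latter from 19 cells) and at 223 and 236 CPM. Over other settings the class ratio of *Cldn4* ranged from -2.81 to -0.89 in villus-labelled libraries, the last with the clusters weighted equally, and from -1.43 to 0.22 in crypt-labelled ones, where 7 of 11 kept its sign. *Cldn23* was above LFD sham in 6 of 6 crypt-labelled clusters (0.85 to 1.30) and 5 of 5 villus-labelled ones (0.62 to 3.02, the highest from 3 UMIs in LFD sham with limits 1.42 to 5.33), and *Cldn3* in the same ones (0.51 to 1.05 and 0.70 to 1.36), with limits above 0 in each. *Cldn7* differed by 0.13 in crypt-labelled and 0.03 in villus-labelled libraries, *Cldn15* by 0.01 and 0.07, *Ocln* by 0.15 and -0.02, and *Tjp1* by 0.07 and -0.29. *F11r* stood at 155 CPM in both crypt-labelled libraries and had a ratio of -0.44 in the villus-labelled ones (limits -0.50 to -0.38), and *Cldn2* one of 0.08 there. This comparison shares its libraries with both others. Damaged-droplet genes were lowest in HFD VSG, at 14395 CPM in crypt-labelled and 9042 in villus-labelled enterocyte-like cells, and their part was not tested. Nor was that of free RNA tested, and droplets under 100 UMIs held the most *Cldn3* in an HFD VSG library.

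Of 85 names of other junction genes in 9 lists, 83 were in the feature lists and 54 passed 50 UMIs in enterocyte-like cells. The names *Mpp5* and *Pals1* stand for the same gene. In crypt-labelled libraries only *Prss8*, a membrane protease (0.64), was past 0.5 between HFD sham and LFD sham, or 1.85% of the 54 against 12.2% of all genes, and none was between HFD VSG and HFD sham, against 8.43%. In villus-labelled libraries 1 was higher in HFD sham than in LFD sham (*Jaml*, 0.94) and 2 lower (*Myh14* and *Nectin1*, each -0.54), or 5.56% against 13.0%. For HFD VSG against HFD sham 6 were above 0.5 and 13 below -0.5, or 35.2% against 41.2% of all genes, with a median of -0.22 against -0.01 over all genes. For HFD VSG against LFD sham 3 were above 0.5 and 0 below in crypt-labelled libraries (*Jaml* and *Tjp3* at 0.52, *Prss8* at 0.71), or 5.56% against 14.3% of all genes. In villus-labelled ones 6 were above and 16 below, or 40.7% against 41.7%.

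Between villus-labelled HFD VSG and HFD sham, the plaque list (11 of 15 passed) had 2 higher in HFD VSG, *Ybx3* (1.05) and *Tjp3*, which encodes ZO-3 (0.73), and 4 lower, among them *Cgn*, cingulin (-0.71), and *Amotl2* (-1.16). Polarity genes (7 of 9 names) had 3 lower, with *Mpp5*, the Crumbs partner Pals1, at -1.09 and *Crb3* highest at 0.36. Actomyosin genes (8 of 9) had *Myl12b* higher (0.57) and 2 lower, *Rock2*, a kinase that acts on actomyosin contraction, at -0.99. Adherens junction genes (10 of 10) had *Nectin1* higher (0.67) and 2 lower, *Ctnna1*, α-catenin, at -0.79. Desmosomal genes (6 of 6) had *Dsp*, desmoplakin, lower (-0.70) and *Pkp3* highest at 0.22. The adhesion molecules (3 of 7) had *Jaml* higher (0.74) and *Cxadr* lower (-0.51), with *Igsf5* at 57.0 CPM in HFD sham and 49.6 in HFD VSG, and the claudin partners (5 of 6) had *Prss8* higher (0.59) and *St14* lowest at -0.36. Tricellular and MARVEL genes (3 of 6) had none past 0.5, with *Lsr* at 0.46, *Marveld3* at 44.4 and 38.8 CPM and *Marveld2*, tricellulin, at -0.24. Of the 17 other claudins only *Cldn12* passed, at 7.33 to 7.92 CPM.

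Between classes the same lists had 53 genes that averaged 50 UMIs over stem-like and enterocyte-like sums. In cluster 8, 8 of the 53 were at least 2-fold above the other enterocyte clusters in all 6 libraries, or 15.1% against 4.12% of all genes, and *Ybx3* was as far below, or 1.89% against 9.28%. The 8 were 4 of 6 desmosomal genes (*Dsg2*, *Dsp*, *Jup* and *Pkp3*), 2 of 5 claudin partners, 1 of 8 actomyosin genes (*Myh9*, a myosin heavy chain) and 1 of 11 plaque genes. None of 10 adherens junction, 6 polarity, 3 adhesion, and 3 tricellular and MARVEL genes was among them, nor was *Cldn12*. The partners were *Epcam*, by log2 ratios of 1.31 to 1.83, and *St14*, matriptase, a protease that cleaves EpCAM, by 1.53 to 1.99. The counts of 8 and 1 were the same without HFD VSG villi. In stem-like cells 5 of the 53 were at least 2-fold above enterocyte-like cells in all 6 libraries, or 9.43% against 19.3% of all genes: *Jaml*, *Ybx3*, *Amot*, *Prkci* and *Prss8*. *Jaml* stood at 225 to 309 CPM in stem-like and 5.98 to 26.3 in enterocyte-like cells, and *Ybx3* at 331 to 404 and 29.1 to 105 CPM. As far below were 6, or 11.3% against 10.6%: *Mylk*, myosin light chain kinase, at log2 ratios of -3.01 to -1.96, *Arhgef2*, *Spint1*, *Cdh17*, *Igsf5* and *Tjap1*. These classes came from clustering the same cells, and the genes named were chosen after their values were seen.

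The genes most alike in pattern were taken as the 3 with the highest Pearson r of log2(CPM + 1) over the 47 class and library sums, among 8149 genes. These sums share libraries, depth and classes, so each r is a description. They include Paneth-like cells, where Paneth markers made 612370 to 678643 CPM, and what those sums add to each r was not tested. *Cldn2* was closest to *Kcne3*, a potassium channel subunit of crypt cells (0.87), then *Cdo1* (0.85) and *Dut* (0.83). *Cldn7* was closest to *Epcam* (0.98), *Psme1* (0.97) and *Pomp* (0.97). *Cldn4* was closest to *Retreg1* (0.87), *Btg2* (0.83) and *Slc18a1*, the monoamine transporter of endocrine cells (0.83), and *Cldn3* to *Trappc6a* (0.94), *Lgals4* (0.94) and *Gng5* (0.93). For *Cldn15* they were *Chpt1* (0.94), *Ppa1* (0.92) and *Pigr* (0.91), and for *Cldn23* *Sertad2* (0.87), *Vmp1* (0.87) and *Itpk1* (0.86). *Ocln* was closest to *Ywhab*, *Tpm3* and *Tmc4* (each 0.95), *Tjp1* to *Yes1* (0.92), *Hbs1l* (0.92) and *Canx* (0.91), and *F11r* to *Casz1* (0.95), *Lgals8* (0.95) and *Pdcd6ip* (0.94). Among the 9 themselves the highest r was 0.89, between *Cldn7* and *Ocln*, and the lowest -0.46, between the neighbouring genes *Cldn3* and *Cldn4*.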

How the data were processed

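Raw UMI counts per gene and barcode, in filtered and raw matrices, were used as the authors deposited them; per the labels they were made with Cell Ranger 6.0.0 on mm10. Library totals were 60522766 to 155522445 UMIs over 7765 to 12012 called barcodes, 59457 in all. The 9 genes, gene lists and markers were chosen with earlier results of these data known. Barcodes with at least 750 genes and at most 20% mitochondrial UMIs were kept, after removing 4794 barcodes with the highest scores against simulated doublets (the share set from the number of barcodes called). Cells were integrated and clustered with Seurat 5.3.0 and sctransform 0.4.2 in R 4.3.3 (2000 features, resolution 0.4), leaving the 9 genes and the 83 list genes out. Clusters were named from fixed marker lists. By a rule added after seeing the clusters, a cluster of 580 cells led by B cell genes was left unnamed, though 12 of 12 enterocyte markers counted there. The largest left unnamed held 2118 and 1935 cells and were led by genes that mark damaged droplets. Unnamed cells were 31.1% of epithelial cells in LFD sham, 24.4% in HFD sham and 18.4% in HFD VSG crypt-labelled libraries. In the villus-labelled ones they were 23.7%, 19.9% and 13.6%. They enter no class ratio but count among epithelial cells. UMIs were summed per class and library in Python 3.11.15 with numpy 2.4.6 and scipy 1.17.1. Ratios were taken for classes of at least 20 cells and genes averaging at least 50 UMIs over the 3 groups, with a log2 ratio of 0.5 as the size threshold, and scripts were tested on simulated data. All 9 genes are named in every comparison of groups in enterocyte-like cells, and of a list the highest and lowest ratio, every gene where 3 or fewer were tested, and further genes chosen after their values were seen. Some listed genes are not reported here. Free RNA was profiled from droplets under 100 UMIs and subtracted only in alternatives. Gene positions came from GENCODE M21 (GRCm38) and promoters from RefSeq. With 1 library a group, intervals cover counting error only.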

Additional observations from a re-analysis of the deposited data

Results flagged for a closer look

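6 pairs of log2 ratios had opposite signs in the crypt-labelled and villus-labelled libraries with both 95% counting limits off 0. Whether the labels differ was not tested, since each value compares 1 library with 1 library. *Cldn4* in enterocyte-like cells was 0.63 for HFD sham against LFD sham in the crypt-labelled and -0.87 in the villus-labelled libraries. *Cldn23* in enterocyte-like cells was -0.15 and 0.25 for HFD VSG against HFD sham. The other 4 compare HFD VSG with LFD sham. *Tjp1* was 0.30 and -0.96 in early progenitor-like cells and 0.073 and -0.29 in enterocyte-like cells, crypt-labelled first. *Cldn2* in early progenitor-like cells was 1.16 (147 and 22 UMIs, in HFD VSG and LFD sham) and -0.31. *Cldn7* in EEC-like cells was -0.31 and 0.28. In 5 of the 6 the HFD VSG villus-labelled library, the deepest, is on 1 side of the pair.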

How the results depend on the processing

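No paired analysis was possible because each group and label is 1 library and no test was run. 13 alternatives were tried, 2 of them added after seeing the data, and of 150 summary values 125 stayed within 1.5 times the reported count. With a log2 size of 1, enterocyte-like counts became 1 and 1 (HFD sham against LFD sham, crypt-labelled then villus-labelled), 0 and 2 (HFD VSG against HFD sham) and 1 and 1 (HFD VSG against LFD sham), and counts of gene and class pairs 1, 4, 2 and 8 for the first 2 comparisons. With a mean of 200 UMIs the pairs were 4, 3, 1 and 15. With at least 1500 genes per cell, the HFD VSG against HFD sham crypt-labelled enterocyte count was 0, the diet pairs in crypt-labelled libraries 4, and the genes at least 2-fold higher in enterocyte-like than stem-like cells 1. That last count was also 1 without cluster 8. Subtracting free RNA at the stated fractions gave 0 for the same enterocyte count and 8 pairs for HFD VSG against HFD sham, crypt-labelled, and a fraction of 0.1 gave 7. At most 10% mitochondrial UMIs gave 15 villus-labelled pairs for that comparison, a doubled doublet share 5 crypt-labelled diet pairs, and resolution 0.8 gave 2 crypt-labelled pairs and 2 villus-labelled enterocyte genes after VSG. At resolution 0.8 the cluster with the leading genes of cluster 8 was unnamed and outside the enterocyte-like class. Among 549 values of single genes 503 kept their sign, and of 165 past the threshold 3 reversed, all *Cldn4* in enterocyte-like cells: -0.047 (diet) and 0.072 (VSG against HFD sham) in crypt-labelled libraries with at least 1500 genes, and 0.98 (diet, villus-labelled) with clusters weighted equally. The cause was not tested. Over these alternatives *Tjp1* in villus-labelled cells for HFD VSG against HFD sham ranged from -1.48 to -1.13 in stem-like and from -1.54 to -1.24 in goblet-like cells, and *Cldn23* for HFD VSG against LFD sham in enterocyte-like cells from 0.91 to 1.37 and 0.76 to 1.46. Cell numbers limit the rarer classes: Paneth-like, EEC-like and tuft-like cells numbered 13 to 132 in a library, and at most 6 of the 9 genes reached the mean of 50 UMIs there.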
